A study of Mus musculus with 24 samples.

Results

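The kinesins of heart muscle cell nuclei were followed over the first postnatal days in control hearts and in hearts depleted of Casp2. The members were the 42 protein-coding genes, of 56923 gene identifiers counted, whose mouse symbol is Kif followed by a number, with or without a letter, or Kifc followed by a number. By their known roles, 13 were listed as mitotic kinesins and 18 as transport kinesins, 10 were listed as other (motors of cilia, depolymerases, and members of centrioles or signalling), and Kif19b was in no list. Between day 7 (P7) and day 14 (P14) after birth, 5 of 40 tested members fell averaged over genotypes, where 8.66% of all genes were called lower: the transport motors Kif5b, Kif3a and Kif1c and the mitotic motors Kif20b and Kif18a. The call of Kif18a was lost in several alternative fits. That of Kif3a was lost when all 24 libraries were fitted. That of Kif1c was lost when the share of reads on no gene entered the fit. In edgeR no member passed the test between genotypes at any age, while DESeq2, and edgeR without its robust option, each called 1 at P14, Kif20b.

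Kinesins are motors that use ATP to move along microtubules, most toward the plus end and those of the Kifc type toward the minus end. Mitotic kinesins build the spindle, align and separate chromosomes and help to complete cytokinesis, and many of their genes are transcribed mainly in cells that prepare to divide. Transport kinesins carry mitochondria, vesicles and other cargo, often through light chains and adaptors, and are also used by cells that no longer divide. Mouse cardiomyocytes leave the cell cycle soon after birth, and many become binucleate or polyploid on the way.

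The study asked how caspase-2, a protease that acts in the control of cardiomyocyte ploidy, shapes the nuclear transcriptome of cardiomyocytes at 1, 7 and 14 days after birth. Control mice were XMLC2(-)Casp2(fl/fl), with floxed Casp2 alleles but no Cre, and Casp2-depleted mice were XMLC2(+)Casp2(fl/fl), with the same alleles and a Cre recombinase driven by XMLC2 in cardiomyocytes. All mice were kept on a C57BL/6N background, both sexes were used without separation, and each library came from a pool of 15 hearts at P1, 6 at P7 and 2 at P14. Nuclei were sorted by PCM1, a marker of cardiomyocyte nuclei, and 3′ mRNA libraries were sequenced. After the 3 libraries that the study left out for low quality, there were 3 P1 control, 4 P1 Casp2-depleted, 4 P7 control, 4 P7 Casp2-depleted, 3 P14 control and 3 P14 Casp2-depleted libraries.

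Reads on genes ran from 891817 to 2924097 over the 21 libraries, with 14006 to 17770 genes detected per library at P7 and 7628 to 13651 at P14. All 8 cardiomyocyte markers had reads in every library, and their summed mean was 69348 CPM (counts scaled to the reads on genes of each library) in P7 controls, 55182 in P7 Casp2-depleted samples, 27886 in P14 controls and 20503 in P14 Casp2-depleted samples. Averaged over genotypes 7 of the 8 were called lower at P14 than at P7, with a median log2 fold change of -2.21. Markers of other cells were far lower. From P7 to P14, 8 endothelial genes summed to means of 243 and 545 CPM in controls and 300 and 613 in Casp2-depleted samples, 8 fibroblast genes to 150 and 257 and to 139 and 312, and 8 macrophage genes to 68.9 and 195 and to 105 and 209. The sums of 8 mural genes were 335 and 327 CPM in controls and 423 and 249 in Casp2-depleted samples, and those of 7 erythroid genes 24.2 and 9.94 and 44.4 and 40.5. Averaged over genotypes 1 of 8 mural genes (median log2 fold change -0.65) and 2 of 5 tested erythroid genes (median -4.86) were called lower at P14. None of the endothelial, fibroblast and macrophage genes tested was called, with median log2 fold changes of -0.27, -0.70 and 0.57. Within P14 controls the endothelial sum ran from 53.2 to 1115 CPM. Scaled by TMM (trimmed mean of M values), the endothelial, fibroblast and macrophage sums rose less from P7 to P14. Endothelial means were then 317 and 388 CPM in controls and 371 and 441 in Casp2-depleted samples. Fibroblast means were 194 and 197 and 173 and 228, and macrophage means 89.5 and 150 and 118 and 153. Mural means were 452 and 244 and 538 and 179, and those of cardiomyocyte markers 95749 and 22611 and 69031 and 15011. The reads that lay on no gene had a median of 47.7% at P7 and 72.5% at P14 in controls and of 52.4% and 75.5% in Casp2-depleted samples. What part these differences have in the results at P14 was not tested, beyond a fit with the share on no gene as a term. Casp2 itself had 0 to 5 reads per library, 9 in all in P7 controls and 8 in P7 Casp2-depleted samples, so that the counts could not check the depletion. In bulk nuclei, fewer cells of a type and less RNA per cell cannot be told apart.

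Of the 42 kinesins, 40 had reads in enough libraries to be tested, 12 mitotic, 18 transport and 10 others, Kif19b included. Kif2b, a mitotic microtubule depolymerase, and Kif12 had 0 reads in all 21 libraries. In mean TMM-scaled CPM over the 21 libraries, Kif1b (345), Kif13a (314) and Kif5b (225) were highest, beside 60.1 for Kifc1 and 48.7 for Kif22. Divided by gene length, as CPM per 100 kb of gene, the highest values were those of Kif5b (522), Kifc1 (397), Kif3a (368), Kif22 (330), Kif1b (231) and Kif13a (173). The libraries were made from 3′ ends, so reads need not grow with gene length. Values per length therefore lift short genes such as Kifc1 and Kif22 and do not rank expression. The order per length differed between groups. Kif5b ran from 952 in P7 controls to 37.3 in P14 Casp2-depleted samples and Kif3a from 735 to 32.8. Kif22 stood at 766 in P14 controls and Kifc1 at 321 in P14 Casp2-depleted samples. A library held reads on 29 to 36 members at P1, 34 to 39 at P7 and 22 to 33 at P14. In the P14 Casp2-depleted group 7 of 13 mitotic members and 16 of 18 transport members had any read, against 11 of 13 and 17 of 18 in P14 controls and 12 of 13 and 18 of 18 in each P7 group. Of the 11 in P14 controls, Kif14, Kif18b, Kif20a and Kif2c were read in replicate 2 alone. Per library, 6, 9 and 6 mitotic members had a read in P14 controls and 6, 7 and 4 in P14 Casp2-depleted samples. The P14 groups had 3 libraries each, the P7 groups 4.

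**Figure D1:**
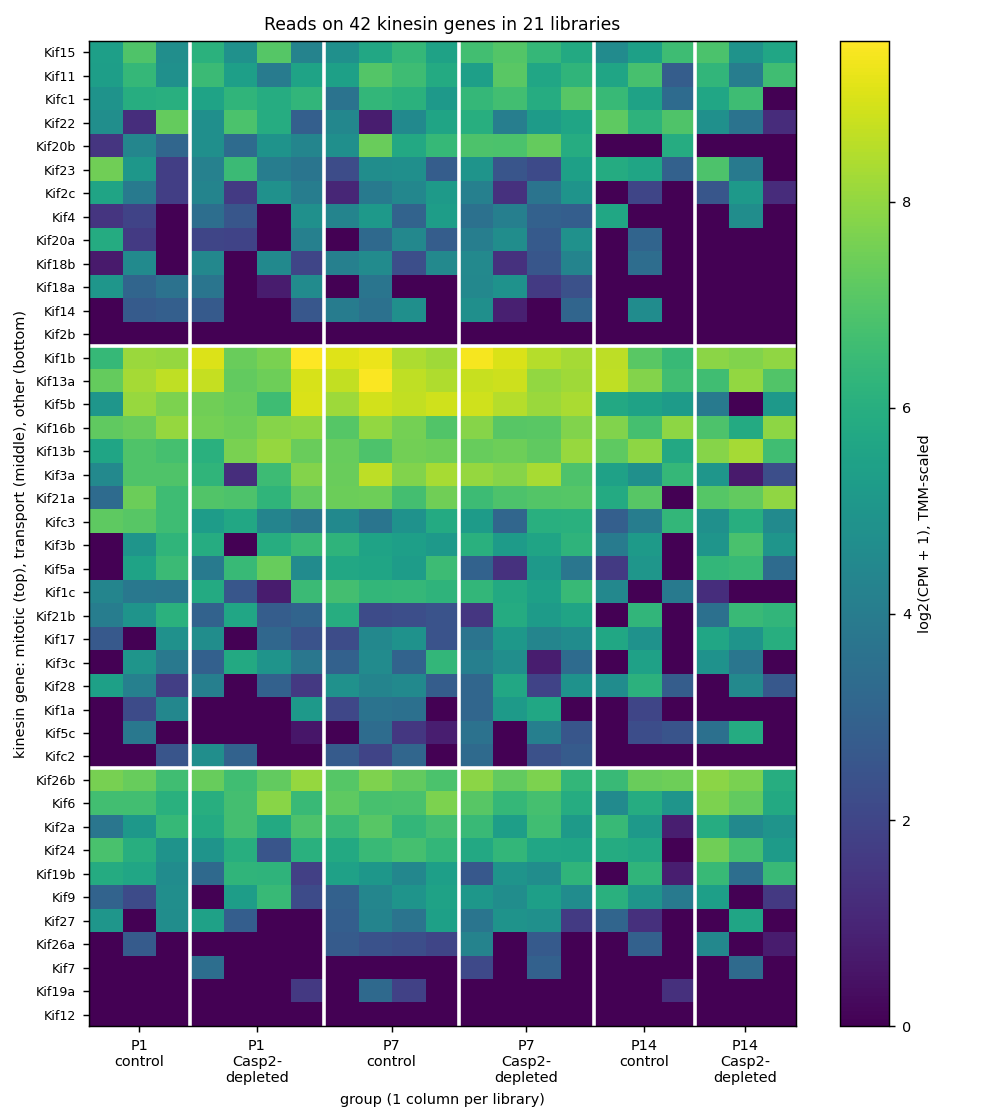
Level of the 42 kinesins (rows, mitotic at the top, transport in the middle, other at the bottom) in 21 libraries (columns, by group), as log2 of TMM-scaled CPM plus 1. The transport motors Kif1b, Kif13a and Kif16b and the mitotic motors Kif11, Kif15 and Kif22 were among those read in every library, and 7 of 13 mitotic members had a read in the P14 Casp2-depleted group against 11 of 13 in P14 controls. Of these 11, Kif14, Kif18b, Kif20a and Kif2c were read in 1 control library, replicate 2.

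Kif5b showed the clearest change with age. It encodes the widely expressed heavy chain of kinesin-1, the motor of mitochondria and many vesicles. In order of replicate number, Kif5b had 548, 662, 634 and 617 reads in P7 controls and 1003, 454, 403 and 464 in P7 Casp2-depleted samples. At P14 it had 76, 59 and 49 reads in controls and 20, 0 and 52 in Casp2-depleted samples. Scaled for depth by TMM (trimmed mean of M values), this was 410 ± 86.6 CPM (SD, n = 4) and 358 ± 81.2 (n = 4) at P7 and 45.1 ± 8.3 (n = 3) and 16.1 ± 17.1 (n = 3) at P14. Every P14 library lay below every P7 library, as was so within controls for 15.4% of all genes in either direction and within Casp2-depleted samples for 13.2%. Kif5b fell by 3.18 (SE 0.67) on the log2 scale in controls (edgeR quasi-likelihood test, Benjamini-Hochberg adjusted p = 5.18e-04) and by 4.47 (SE 0.72) in Casp2-depleted samples (adjusted p = 2.07e-07). It was the only one of the 40 members called in controls, where 1.87% of the 20368 genes tested were called lower. Both calls within a genotype were lost with all 24 libraries (edgeR adjusted p = 0.150 in controls and 0.200 in Casp2-depleted samples). The control call was also lost without TMM factors, with the share on no gene as a term and with limma-voom. Averaged over genotypes Kif5b fell by 3.83 (SE 0.49, adjusted p = 3.06e-12), and by pooled, TMM-scaled reads its level was 12.9-fold lower.

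Kif3a and Kif1c moved with Kif5b. Kif3a is a motor subunit of heterotrimeric kinesin-2, known for intraflagellar transport in cilia. It had 314, 542, 324 and 425 reads in P7 controls, 571, 281, 464 and 168 in P7 Casp2-depleted samples, 61, 36 and 106 in P14 controls and 45, 1 and 6 in P14 Casp2-depleted samples. The ages did not overlap in either genotype in TMM-scaled CPM, with 118 the lowest value at P7 and 80.5 the highest at P14. Such a separation was seen in controls for 6 of 40 members, against 15.4% of all genes. In Casp2-depleted samples it was seen for 10 of 40, against 13.2%. Kif3a fell by 3.34 (SE 0.57, edgeR adjusted p = 4.48e-07) averaged over genotypes and by 4.26 (SE 0.84, adjusted p = 7.35e-05) in Casp2-depleted samples, while in controls the log2 fold change of -2.43 (SE 0.76) did not pass the test (adjusted p = 0.0660), although it did in a fit of only the groups compared (adjusted p = 0.0382). The call of Kif3a in Casp2-depleted samples was lost with all 24 libraries (log2 fold change -1.70, edgeR adjusted p = 0.428), where the added P14 library had 507 reads on the gene, and with limma-voom (adjusted p = 0.0653). Kif1c, a motor of Golgi and secretory vesicles, had 198, 109, 123 and 98 reads in P7 controls and 171, 69, 62 and 122 in P7 Casp2-depleted samples, but 30, 0 and 19 in P14 controls and 2, 0 and 0 in P14 Casp2-depleted samples. Both P14 groups lay below both P7 groups, beside the same shares of all genes. It fell by 4.88 (SE 1.24, edgeR adjusted p = 2.64e-03) averaged over genotypes and by 6.94 (SE 1.96, adjusted p = 0.0193) in Casp2-depleted samples, where the pooled level was 153-fold lower (counting interval 42.1 to 1267, from 2 reads against 424). The call in Casp2-depleted samples was lost when replicate number was blocked on (edgeR adjusted p = 0.0566), with all 24 libraries (0.0821), without TMM factors (0.140), with the share on no gene as a term (0.226), and without P7 replicate 1 (0.0690), P14 replicate 3 (0.187) or P14 replicate 4 (0.176).

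Of the mitotic members, Kif20b and Kif18a fell. Kif20b is a plus-end motor of the late spindle and midbody that is needed for cytokinesis. It had 50, 229, 81 and 113 reads in P7 controls and 253, 144, 227 and 85 in P7 Casp2-depleted samples. At P14 its 79 reads in control replicate 4 were the only ones, with 0 reads in the other 5 libraries. Kif20b was called in Casp2-depleted samples (edgeR adjusted p = 3.03e-04), where its pooled level was at least 171-fold lower at P14, with 0 reads taken as up to 3 over the group. In controls it was 3.95-fold lower (counting interval 3.11 to 5.08) and was not called (log2 fold change -2.04, SE 1.37, adjusted p = 0.414). Averaged over genotypes the fitted log2 fold change was -6.23 (SE 1.29, adjusted p = 9.04e-05), a value that depends on the prior count given to a group at 0.

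Kif18a, which slows the plus ends of kinetochore microtubules and aligns chromosomes, was read thinly at every age. It had 53, 11 and 14 reads in P1 controls, 24, 0, 1 and 47 in P1 Casp2-depleted samples, 0, 17, 0 and 0 in P7 controls and 45, 36, 3 and 6 in P7 Casp2-depleted samples. All 6 P14 libraries had 0 reads. Against pooled P7 its level at P14 was at least 24.6-fold lower and against pooled P1 at least 38.3-fold lower, and averaged over genotypes it was called against both (edgeR adjusted p = 0.0459 and 0.0457). The call between P14 and P7 did not hold with no filter on low counts (adjusted p = 0.0674), without TMM factors (0.0937), without the robust option (0.0583) or when any of 11 single libraries was left out (0.0512 to 1.00). The value of 1.00 was that without P7 control replicate 2, which holds all 17 control reads of that day. Blocking on replicate number gave an adjusted p of 0.102 against P7 and 0.0536 against P1. The call against P1 was also lost with no filter (edgeR adjusted p = 0.0647), with only the groups compared (0.161), without TMM factors (0.0866), with the share on no gene as a term (0.240), without the robust option (0.0573) and when any of 11 single libraries was left out (0.0555 to 0.127).

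**Figure D2:**
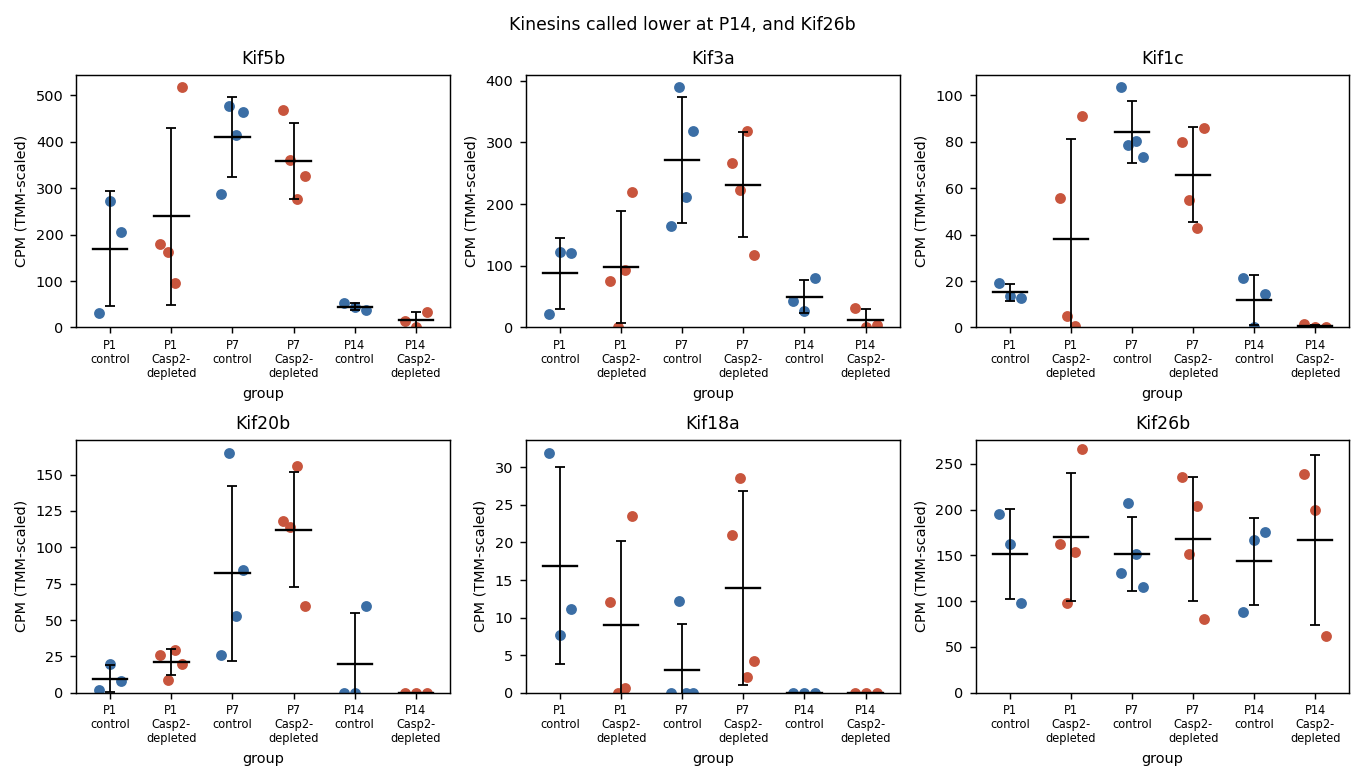
TMM-scaled CPM of the 5 kinesins called lower at P14 and of Kif26b in each library, by group (points), with the mean (horizontal line) and SD (whiskers). Kif5b lay between 277 and 477 CPM at P7 and between 0 and 53.7 at P14, while Kif26b had group means of 143 to 170 CPM at all ages.

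To show the regulatory sequence beside these changes, the 250 bases before the annotated start are given for 4 of the called members and for Kif11, a spindle motor whose ages overlapped, from RefSeq on GRCm38.p6 and on the plus strand of each gene. Capitals mark a CCAAT box (CCAAT, or ATTGG on the other strand) or a CHR element (TTTGAA, or TTCAAA on the other strand), motifs known from promoters of cell cycle genes. The windows were chr2:109280488-109280737 for Kif18a, chr19:34922108-34922357 for Kif20b, chr11:70700298-70700547 for Kif1c, chr11:53567119-53567368 for Kif3a and chr19:37376132-37376381 for Kif11.
Kif18a: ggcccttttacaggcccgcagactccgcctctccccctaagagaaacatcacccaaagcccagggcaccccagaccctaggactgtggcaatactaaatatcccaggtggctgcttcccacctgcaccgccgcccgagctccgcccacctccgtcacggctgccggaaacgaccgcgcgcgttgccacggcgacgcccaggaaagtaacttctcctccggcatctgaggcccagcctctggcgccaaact
Kif20b: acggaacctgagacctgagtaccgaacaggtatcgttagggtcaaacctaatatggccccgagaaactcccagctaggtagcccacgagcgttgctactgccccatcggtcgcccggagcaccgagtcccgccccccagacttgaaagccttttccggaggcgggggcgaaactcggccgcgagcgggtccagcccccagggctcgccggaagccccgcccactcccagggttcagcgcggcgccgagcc
Kif1c: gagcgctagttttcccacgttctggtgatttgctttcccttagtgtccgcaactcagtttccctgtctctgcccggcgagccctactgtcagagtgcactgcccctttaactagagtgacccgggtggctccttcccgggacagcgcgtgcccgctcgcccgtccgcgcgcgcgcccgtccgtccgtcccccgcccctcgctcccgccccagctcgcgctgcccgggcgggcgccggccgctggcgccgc
Kif3a: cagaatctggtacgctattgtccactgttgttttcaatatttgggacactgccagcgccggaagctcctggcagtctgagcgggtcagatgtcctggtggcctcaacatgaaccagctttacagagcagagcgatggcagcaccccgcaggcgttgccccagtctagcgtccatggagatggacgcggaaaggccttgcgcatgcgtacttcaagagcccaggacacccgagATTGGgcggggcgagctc
Kif11: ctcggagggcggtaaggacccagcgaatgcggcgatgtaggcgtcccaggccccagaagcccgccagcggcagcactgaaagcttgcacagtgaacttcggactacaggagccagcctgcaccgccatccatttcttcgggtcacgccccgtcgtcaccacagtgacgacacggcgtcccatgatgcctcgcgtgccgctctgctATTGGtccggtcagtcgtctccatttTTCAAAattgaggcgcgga
Neither motif was found in the windows of Kif18a, Kif20b and Kif1c, 1 CCAAT box in that of Kif3a, and 1 of each in that of Kif11. Of the 32 kinesins with a listed promoter, a CCAAT box was found for 8 of 12 mitotic members and 3 of 11 transport members, against 37.5% of all 27025 genes with a promoter of this length. A CHR element was found for 5 of 12 mitotic and 1 of 11 transport members, against 18.3% of all genes, and both motifs together for 3 of 12 and 0 of 11, against 7.34%. These are matches of letters and not binding sites.

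Averaged over genotypes, 5 of the 40 members were called lower at P14 than at P7 and 0 higher, against 8.66% of all genes called lower. Among mitotic members 2 of 12 were called, with 10 lower and 2 higher in direction. Among transport members 3 of 18 were called, with 14 lower and 4 higher, and among the 10 others, Kif19b included, 0 were called. The median log2 fold change was -1.29 for the mitotic, -0.40 for the transport and -0.29 for the other members, beside -0.87 for all genes tested. With genes that had 0 reads at one age set to their bound, the medians were -1.10, -0.40 and -0.29 beside -0.56. The direction of the members that were not called depended on the scaling. Of the 40 members 32 were lower with TMM factors, 25 with DESeq2 size factors and 16 without scaling factors, as the median of all genes moved from -0.87 to -0.54 and -0.17. In Casp2-depleted samples alone 4 of 40 members were called lower (Kif20b, Kif1c, Kif3a and Kif5b), against 2.82% of all genes.

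**Figure D3:**
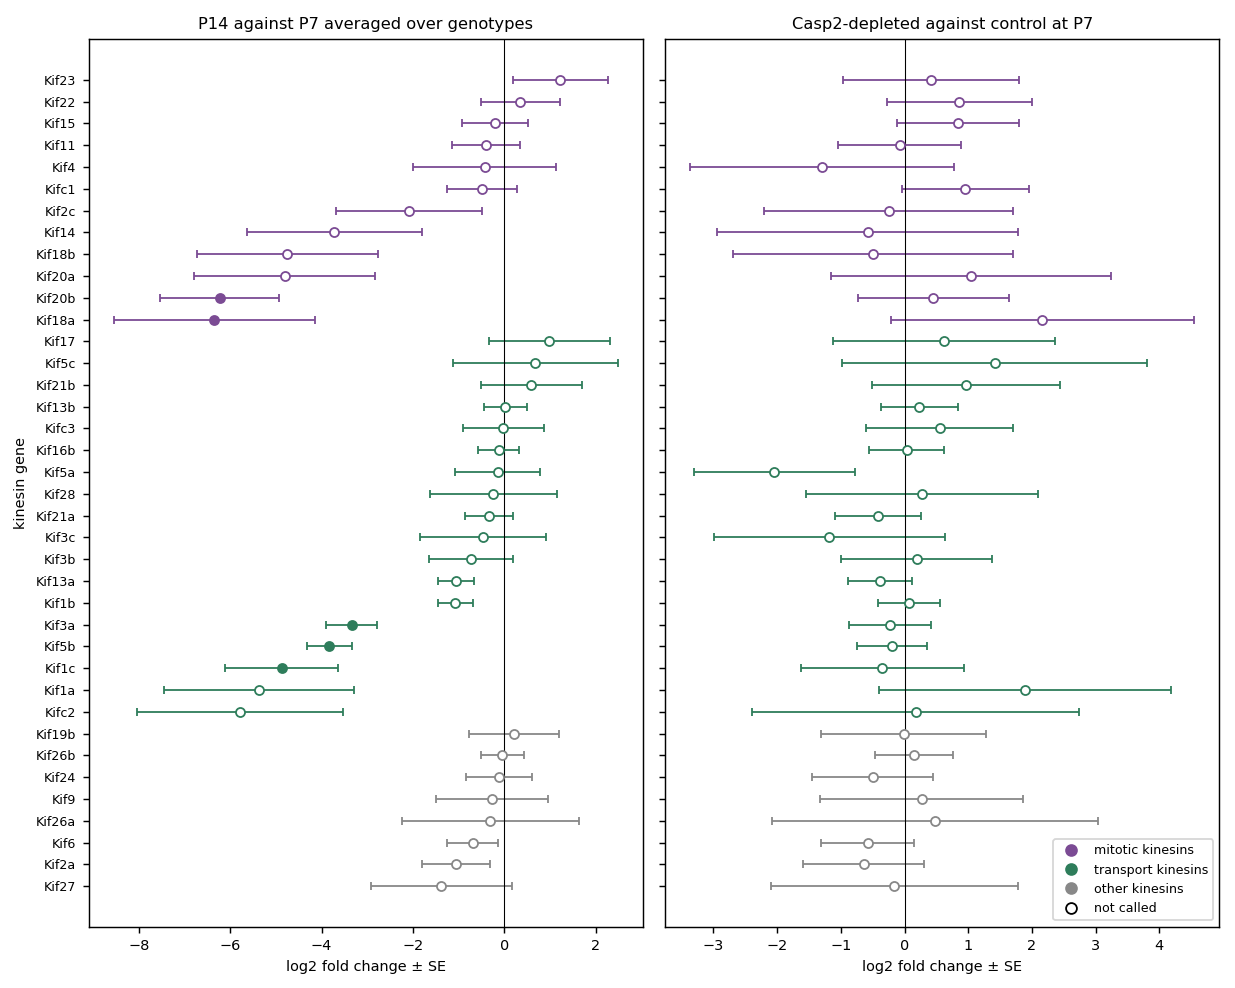
Log2 fold change with its standard error for 38 tested kinesins in P14 against P7 averaged over genotypes (left) and in Casp2-depleted against control at P7 (right), with filled points for called genes. The 5 filled points at the left run from -6.35 (Kif18a) to -3.34 (Kif3a), no point is filled at the right, and Kif19a and Kif7 were not drawn because a standard error was above 10.

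The falls of Kif5b and Kif1c averaged over genotypes were also called with all 24 libraries (edgeR adjusted p = 2.56e-03 and 8.27e-03), but that of Kif3a was not (log2 fold change -2.23, adjusted p = 0.0551). Within each genotype, the calls of Kif5b were lost when the left-out libraries were added (edgeR adjusted p = 0.150 in controls and 0.200 in Casp2-depleted samples). In controls the call of Kif5b was also lost without TMM factors (adjusted p = 0.0565), with the share on no gene as a term (0.114) and with limma-voom (0.0691), whose single called member there was another. When the share of reads on no gene entered the fit as a term, 3 members were called averaged over genotypes in place of 5, and 225 of all genes in place of 1817. The members that lost their call in that fit were Kif1c (log2 fold change -3.41, adjusted p = 0.292) and Kif18a (-1.79, adjusted p = 0.854).

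P14 was compared with P1 in the same way. Averaged over genotypes 3 of 40 members were called lower, Kif5b (log2 fold change -2.90, SE 0.48, edgeR adjusted p = 4.56e-07), Kif3a (-1.91, SE 0.54, adjusted p = 0.0173) and Kif18a, against 4% of all genes. In Casp2-depleted samples Kif5b (-3.89, SE 0.70, adjusted p = 1.26e-05), Kif3a (-3.01, SE 0.79, adjusted p = 0.0124) and Kif20b (adjusted p = 0.0104) were called lower, against 1.92% of all genes. The P1 libraries varied widely, Kif5b with 52, 387 and 259 reads in controls and 357, 231, 141 and 1037 in Casp2-depleted samples, and Kif3a with 36, 173 and 151 and with 150, 2, 138 and 441. The call of Kif5b in Casp2-depleted samples was lost with all 24 libraries (log2 fold change -2.27, edgeR adjusted p = 0.220) and with limma-voom (adjusted p = 0.0940), which also lost it averaged over genotypes (0.0789). The call of Kif3a in Casp2-depleted samples was lost without P1 replicate 4 (adjusted p = 0.219), without P14 replicate 3 (0.239), without P14 replicate 4 (0.219), with all 24 libraries (log2 fold change -0.45, adjusted p = 0.987) and in 5 other fits (0.0807 to 0.401), besides the block. The call of Kif20b in Casp2-depleted samples was lost with all 24 libraries (edgeR adjusted p = 0.0762), with only the groups compared (0.386), without TMM factors (0.0815), with the share on no gene as a term (0.0538), and without P14 replicate 3 (0.0981) or 4 (0.0993). With a block for replicate number Kif3a was not called in Casp2-depleted samples (adjusted p = 0.0790) or averaged over genotypes (0.0684). Averaged over genotypes Kif3a was also not called with all 24 libraries (log2 fold change -0.78, adjusted p = 0.700), DESeq2 (0.0979), limma-voom (0.410), edgeR's own filter (0.0700), only the groups compared (0.298), no TMM factors (0.157), the share on no gene as a term (0.321) or without any 1 of 6 single libraries (0.0599 to 0.143). In the blocked fit 1 member was called averaged over genotypes in place of 3. In controls 0 of 40 members were called, against 0.319% of all genes, 2 had an unadjusted p below 0.05 (Kif5b and Kif18a, both lower, against 11.5% of all genes), and DESeq2 and limma-voom called 0.

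Between P1 and P7 no member was called. In controls 0 of 40 members passed, against 0.00982% of all genes, and 4 had an unadjusted p below 0.05 against 6.67% of all genes, Kif5b, Kif3a, Kif1b and Kif20b, all higher at P7. In Casp2-depleted samples 0 passed, against 0.0196%, and 1 had an unadjusted p below 0.05 (Kif26a, higher), against 7.4%. Averaged over genotypes 0 passed, against 0.0933%, and 4 had an unadjusted p below 0.05 against 9.53%, with log2 fold changes of 2.73 for Kif20b (SE 0.96), 1.44 for Kif3a (SE 0.49), 0.93 for Kif5b (SE 0.41) and 3.68 for Kif26a (SE 1.85). DESeq2 and limma-voom called 0 in these 3 comparisons, and a fit of only the groups compared called 1, Kif20b (edgeR adjusted p = 0.0198). By pooled reads Kif20b stood at 9.45 CPM in P1 controls and 76.8 in P7 controls, an 8.12-fold higher level (counting interval 5.90 to 11.5), and Kif1c at 15.4 and 85.7 CPM.

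Of the mitotic members that were not called, Kif11, the motor that pushes spindle poles apart, had 81, 177, 145 and 75 reads in P7 controls and 68, 144 and 8 at P14, and 89, 175, 71 and 107 in P7 Casp2-depleted samples and 109, 25 and 151 at P14. Kif15, which can stand in for Kif11, had 52 to 123 reads in P7 controls and 33 to 127 at P14, and 78 to 218 in P7 Casp2-depleted samples and 46 to 164 at P14. In both genes the ages overlapped in each genotype, with averaged log2 fold changes of -0.41 (SE 0.74) for Kif11 and -0.20 (SE 0.73) for Kif15. Kifc1, a minus-end motor that focuses spindle poles and may share reads with the near copy Kifc5b, had 22 to 110 reads in P7 controls, 87 to 189 in P7 Casp2-depleted samples, 12 to 122 in P14 controls and 0 to 152 in P14 Casp2-depleted samples. Kif23, the motor of the centralspindlin complex, had 7 to 40 and 5 to 64 reads at P7 and 9 to 82 and 0 to 168 at P14.

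Kif22, a motor that binds chromosome arms, had 39, 1, 34 and 62 reads in P7 controls, 134, 20, 54 and 68 in P7 Casp2-depleted samples, 207, 95 and 160 in P14 controls and 38, 18 and 2 in P14 Casp2-depleted samples. The P14 groups did not overlap, as for 5.15% of all genes and, among the 40 members, Kif5b besides. Of the P14 libraries left out, the Casp2-depleted one had 290 reads on Kif22 and 301 on Kif5b and the control one 0 on both, so that neither gene was separated over all 24 libraries. Kif22 stood at 113 ± 38.2 CPM (SD, n = 3) in controls and 13.2 ± 12.8 (n = 3) in Casp2-depleted samples, but the difference did not pass the test (log2 fold change -3.10, SE 1.42, edgeR adjusted p = 0.388).

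Kif14, Kif18b and Kif20a, motors of cytokinesis, of astral microtubules and of the spindle midzone, were each read in 1 P14 library, control replicate 2, with 32, 13 and 10 reads. Pooled over genotypes their levels at P14 were 3.28-fold, 9.67-fold and 11.3-fold below those at P7, and none was called (edgeR adjusted p = 0.182, 0.0955 and 0.0914). Kif2c, a depolymerase at centromeres, had 101 reads over P7 controls, 98 over P7 Casp2-depleted samples, 4 over P14 controls and 65 over P14 Casp2-depleted samples. Kif4, a chromokinesin of the central spindle, had 0 to 72 reads per P14 library, and its highest level there, 50.9 CPM, was above the 39.0 CPM that was the highest at P7.

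The most-read transport members, Kif1b and Kif13a, had log2 fold changes near the median of all genes and were not called. Kif1b, which carries mitochondria and vesicle precursors, had 1044, 856, 509 and 391 reads in P7 controls and 545, 182 and 114 in P14 controls, and 1489, 650, 525 and 438 in P7 Casp2-depleted samples and 335, 339 and 383 in P14 Casp2-depleted samples. Its log2 fold change was -1.07 (SE 0.39, edgeR adjusted p = 0.0558), and it was called in the fit blocked on replicate number (-1.10, adjusted p = 0.0424), with only the groups compared (0.0375), and without P7 Casp2-depleted replicate 4 (0.0456) or P14 control replicate 1 (-1.51, 8.29e-03). Kif13a, a motor of endosomes, had 451 to 995 reads in P7 controls, 373 to 915 in P7 Casp2-depleted samples, 128 to 561 in P14 controls and 140 to 403 in P14 Casp2-depleted samples, with a log2 fold change of -1.07 (SE 0.39, adjusted p = 0.0642). It was called with limma-voom (adjusted p = 0.0446), with only the groups compared (0.0494) and without P14 control replicate 1 (-1.36, 0.0245). With the share on no gene as a term the values turned to 0.43 for Kif1b and 0.033 for Kif13a.

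Of the other transport members, Kif16b and Kif13b had averaged log2 fold changes near 0, while Kif1a and Kifc2 were read thinly. In mean TMM-scaled CPM from P7 to P14, Kif17 went from 14.3 to 26.2 in controls and from 22.0 to 47.3 in Casp2-depleted samples. Kif3b went from 48.8 to 17.0 and from 55.6 to 57.4, and Kif5a from 57.7 to 11.2 and from 13.9 to 58.4. None of them was called. Kif16b, a motor of early endosomes, had 167 to 355 reads in P7 controls and 141 to 318 in P14 controls, 171 to 477 in P7 Casp2-depleted samples and 89 to 375 in P14 Casp2-depleted samples (log2 fold change -0.12, SE 0.45). Kif13b, a vesicle motor, had 162 to 310 and 216 to 382 reads at P7 and 70 to 325 and 151 to 492 at P14 (log2 fold change 0.02, SE 0.46). Kif1a, a motor of vesicle precursors in neurons, was read thinly, with 38 reads over P7 controls and 135 over P7 Casp2-depleted samples, and only 4 reads over the 6 P14 libraries. Its level was 29.9-fold lower at P14 by pooled reads (counting interval 11.5 to 111) and was not called (edgeR adjusted p = 0.0781), although it was with all 24 libraries (0.0470) and with limma-voom (0.0477). Kifc2 had 60 reads over the 8 P7 libraries and 0 at P14, at least 13.8-fold lower, and was not called (adjusted p = 0.0797).

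Of the members outside both lists, Kif26b, which lacks motor activity and acts in morphogenesis, was the most read, with group means of 143 to 170 CPM and an averaged log2 fold change of -0.04 (SE 0.47) from P7 to P14. Kif24, a depolymerase at centrioles, had 104 to 160 reads in P7 controls, 68 to 116 in P7 Casp2-depleted samples, 0 to 83 in P14 controls and 57 to 252 in P14 Casp2-depleted samples (log2 fold change -0.12, SE 0.73). Kif2a, a microtubule depolymerase, had 122 to 186 and 50 to 189 reads at P7 and 1 to 123 and 35 to 85 at P14 (log2 fold change -1.06, SE 0.74). Kif7, a regulator of hedgehog signalling in cilia, was read in 4 libraries, all Casp2-depleted, with 20 reads at P1, 7 and 10 at P7 and 14 at P14.

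Summed over the list, mitotic kinesins took 153, 318, 336 and 306 CPM of the reads on genes in P7 controls and 401, 402, 360 and 497 in P7 Casp2-depleted samples. The P7 groups did not overlap, at 278 ± 84.4 (SD, n = 4) and 415 ± 58.1 (n = 4). With TMM-scaled library sizes they did, with 554 CPM the highest control and 418 the lowest Casp2-depleted value, and they also overlapped when Kif20b was left out of the list (up to 294 against 225 upward). The other ages overlapped, with 414 ± 168 (n = 3) in P1 controls, 347 ± 110 (n = 4) in P1 Casp2-depleted samples, 455 ± 11.8 (n = 3) in P14 controls and 348 ± 121 (n = 3) in P14 Casp2-depleted samples. With TMM-scaled library sizes the mean mitotic sums at P7 and P14 were 384 and 357 CPM in controls and 512 and 257 in Casp2-depleted samples. Transport kinesins summed to 1462 ± 436, 1745 ± 271, 1775 ± 85.9, 1787 ± 176, 1394 ± 311 and 1785 ± 415 CPM in the groups from P1 control to P14 Casp2-depleted, with overlap between the genotypes at each age. With TMM-scaled library sizes the transport sums were higher at P7, with means of 2398 and 2208 CPM, and lower at P14, with 1111 and 1254 CPM.

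The mitotic share of the reads on mitotic and transport kinesins does not depend on library scaling. It was 7.61, 15.5, 16.7 and 14.3% in P7 controls and 17.5, 20.1, 17.7 and 20.1% in P7 Casp2-depleted samples, so that all 4 depleted libraries lay above all 4 controls. The gap was narrow, from 16.7 to 17.5%. The 95% Wilson interval of P7 control replicate 3 reached 17.9% and that of Casp2-depleted replicate 3 began at 16.4%. These intervals cover counting error only and not the spread between pools. Without Kif20b the groups overlapped, with controls up to 14.9% and Casp2-depleted samples from 11.8%. At P1 the share was 38.4, 17.6 and 14.0% in controls and 15.8, 23.1, 20.1 and 8.70% in Casp2-depleted samples, and at P14 it was 22.6, 22.7 and 30.0% in controls and 26.5, 13.5 and 11.1% in Casp2-depleted samples. The genotypes overlapped at both ages, and at P14 the 3 controls lay above all P7 libraries of either genotype, while the P14 control library that was left out had no read on a mitotic member. Part of the share in these 3 controls rested on Kif22, with 462 reads over libraries that held 584, 479 and 395 mitotic reads.

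**Figure D4:**
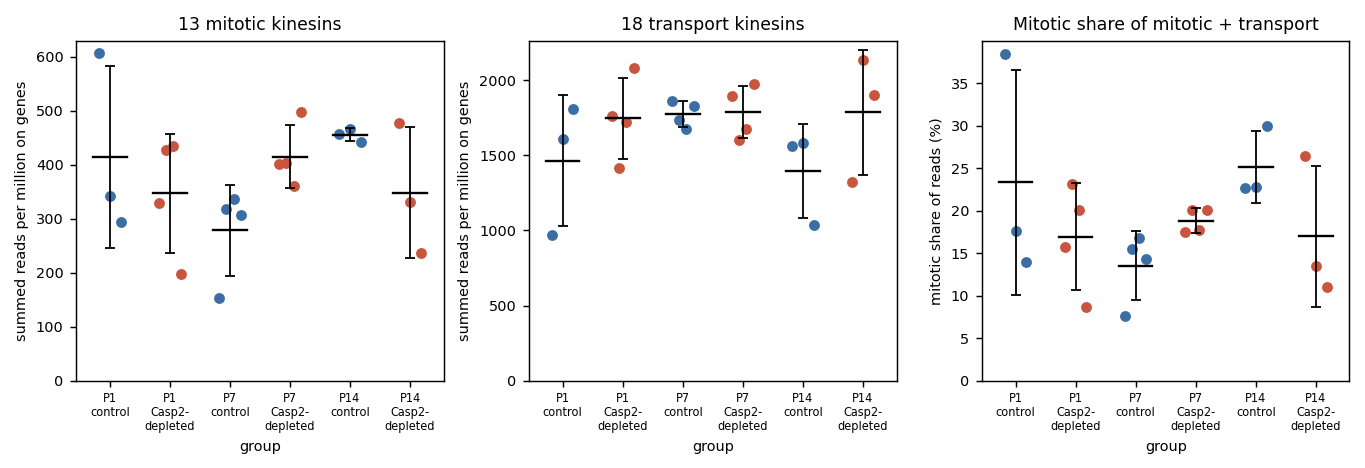
Summed CPM of 13 mitotic kinesins (left) and 18 transport kinesins (middle), scaled to the reads on genes, and mitotic share of their reads (right, in %) in each library by group, with the mean (horizontal line) and SD (whiskers). At P7 the mitotic share was 7.61 to 16.7% in controls and 17.5 to 20.1% in Casp2-depleted samples, while the transport sums of the genotypes overlapped.

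Between genotypes, 0 of 40 members were called at P1 (0% of all genes), 0 at P7 (0% of all genes) and 0 at P14 (0.167% of all genes). At P1 0 members had an unadjusted p below 0.05, against 7.34% of all genes. The P1 groups did not overlap for 1 member, against 3.4% of all genes. This was Kifc3, a minus-end motor, with 239, 188 and 121 reads in controls and 76, 75, 28 and 26 in Casp2-depleted samples (log2 fold change -2.01, SE 1.24, edgeR adjusted p = 0.704). At P7 2 members had an unadjusted p below 0.05, against 4.22% of all genes, and both were thinly read. Kif19a had 12 and 4 reads in controls and 0 in Casp2-depleted samples. Kif7 had 7 and 10 reads in Casp2-depleted samples and 0 in controls. DESeq2 and limma-voom called 0 members at P1 and at P7. Of the 12 mitotic members tested 7 were higher and 5 lower in Casp2-depleted samples at P7, with a median log2 fold change of 0.43, beside 0.12 for transport members and -0.03 for all genes. Kif18a had 90 reads in 4 of 4 P7 Casp2-depleted libraries against 17 reads in 1 of 4 controls, a 5.20-fold difference by pooled reads (counting interval 3.07 to 9.31), and the fitted log2 fold change of 2.17 (SE 2.38) did not pass the test (edgeR adjusted p = 1.00). The groups did not overlap for 1 member, against 1.64% of all genes. This was Kif5a, a kinesin-1 heavy chain best known from neurons, with 100, 67, 58 and 123 reads in controls and 15, 2, 50 and 18 in Casp2-depleted samples (log2 fold change -2.05, SE 1.26, adjusted p = 1.00).

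At P14 7 members had an unadjusted p below 0.05, against 12.8% of all genes. Lower in Casp2-depleted samples were Kif20b (edgeR adjusted p = 0.0664), Kif3a (log2 fold change -2.05, SE 0.79, adjusted p = 0.365), Kif1c (-4.48, SE 1.82, adjusted p = 0.379), Kif5b (-1.48, SE 0.66, adjusted p = 0.384), Kif22 and Kif14 (both adjusted p = 0.388), and Kif6, a ciliary motor, was higher (1.87, SE 0.87, adjusted p = 0.388). DESeq2 called 1, Kif20b, and limma-voom called 0. The value of Kif20b rested on P14 control replicate 4, and without that library the gene had 0 reads in both groups. Kif20b was called without P14 control replicate 1 (edgeR adjusted p = 0.0357) or 2 (0.0146), and Kif3a without P14 Casp2-depleted replicate 2 (log2 fold change -4.42, adjusted p = 0.0109). With the left-out P14 libraries included, the log2 fold change of Kif3a turned to 0.86.

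Whether age changed the members differently in the 2 genotypes was tested as an interaction. For P7 against P1, 0 of 40 members were called (0% of all genes), and 1 had an unadjusted p below 0.05 (Kif19a), against 6.83% of all genes. For P14 against P7, 0 were called, against 0.0245% of all genes, and 4 had an unadjusted p below 0.05 against 9.76%. The fitted difference, as Casp2-depleted minus control on the log2 scale, was -8.39 for Kif20b (SE 2.37), -3.96 for Kif22 (SE 1.80), 4.42 for Kif5a (SE 1.95) and 2.45 for Kif6 (SE 1.13). From P7 to P14 the log2 fold change of Kif22 was 2.33 (SE 1.24) in controls and -1.63 (SE 1.29) in Casp2-depleted samples, and neither was called. Their edgeR adjusted p were 0.329, 0.469, 0.459 and 0.477. DESeq2 called 0 and 1 (Kif20b) in these comparisons, and limma-voom called 0 in both.

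Of the reads on the kinesin-1 heavy chains Kif5a, Kif5b and Kif5c, Kif5b took 78.0% in P1 controls, 87.1% in P7 controls and 76.7% in P14 controls, and 80.2%, 94.3% and 16.3% in the Casp2-depleted groups. In the P14 Casp2-depleted group 59.6% of these reads were on Kif5a. The shares of Kif5b in single libraries there were spread from 0 to 78.8%, against 55.7 to 96.2% in P14 controls, so that the genotypes overlapped. Of the kinesin-2 motor subunits, Kif3a took 77.1% in both P7 groups, 61.5% in P14 controls and 13.8% in P14 Casp2-depleted samples, where Kif3b, its usual partner, took 70.4%. In single libraries Kif3a took 25.4 to 100% in P14 controls and 0.510 to 34.9% in P14 Casp2-depleted samples, so that the genotypes overlapped. Kif3b had 21, 48 and 0 reads in P14 controls and 44, 175 and 47 in P14 Casp2-depleted samples. In the third family Kif1b took 83.2% and 84.7% of the reads on Kif1a, Kif1b and Kif1c at P7, and 94.1% and 99.8% at P14. These shares are sums over thin counts, and no test was made of them.

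**Figure D5:**
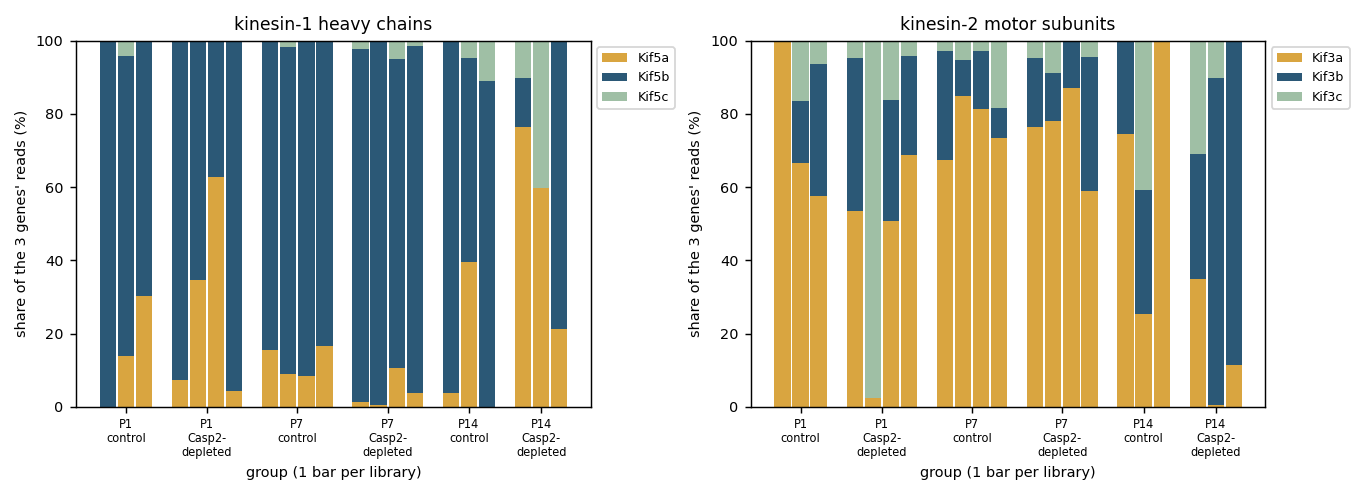
Share (in %) of the reads on the kinesin-1 heavy chains Kif5a, Kif5b and Kif5c (left) and on the kinesin-2 subunits Kif3a, Kif3b and Kif3c (right), with 1 bar per library in 6 groups. Kif5b took 83.3 to 99.6% in the P7 libraries and 0 to 78.8% in the P14 Casp2-depleted libraries.

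The partners of the motors were read from 3 further lists. Of 21 light chains and cargo adaptors tested, 3 were called lower at P14 than at P7 averaged over genotypes and 0 higher, against 8.66% of all genes called lower, with a median log2 fold change of -1.84 beside -0.87 for all genes. Klc1, the light chain that joins kinesin-1 to its cargo, had 146 to 220 reads in P7 controls, 22 to 522 in P7 Casp2-depleted samples, and 22, 4, 0, 0, 6 and 0 reads in the 6 P14 libraries (log2 fold change -5.28, SE 0.89, edgeR adjusted p = 4.05e-07). Trak1, which joins kinesin-1 to mitochondria, had 92 to 631 reads at P7 and 6 to 105 at P14 (-2.62, SE 0.58, adjusted p = 3.69e-04). Spag9, an adaptor of kinesin-1 and dynein and the most-read gene of the list, was lower by 1.19 (SE 0.40, adjusted p = 0.0401). Syne1 (-0.66, SE 0.42) and Plekhm2 (-1.11, SE 0.86), the next by reads, were not called, and Kifap3, the subunit that joins Kif3a and Kif3b to cargo, was not called either (0.29, SE 1.02).

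Of 19 mitotic partners tested, 5 were called lower and 0 higher, against the same 8.66%, with a median log2 fold change of -1.43 beside -0.87 for all genes. Incenp, the scaffold of the chromosomal passenger complex, had 108 to 863 reads at P7 and 0 to 248 at P14 (-3.17, SE 0.53, edgeR adjusted p = 1.09e-06). Mki67, a coat protein of mitotic chromosomes, had 28 to 239 reads at P7 and 0 in all P14 libraries, at least 201-fold lower by pooled reads. Top2a, which untangles DNA, was 29.4-fold lower by pooled reads, Cdca8, a partner of Incenp, 30.0-fold, and Cenpe, a kinetochore motor of the kinesin superfamily whose symbol is not of the Kif form, 4.53-fold (log2 fold change -2.31, SE 0.77, adjusted p = 0.0376). Nusap1 (-0.80, SE 0.60) and Cit (-0.15, SE 0.62), the most-read after Incenp, were not called. Summed, the mitotic partners took 723 to 1035 CPM in P7 controls and 1131 to 1361 in P7 Casp2-depleted samples, with overlap once TMM scaling was used (863 to 1510 and 1305 to 1942).

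Of 23 genes tested of dynein, the motor that runs toward the minus end against most kinesins, and its partners, 5 were called lower, against 8.66% of all genes, with a median log2 fold change of -2.38 beside -0.87 for all genes. Pafah1b1, a regulator of dynein, was lower by 2.54 (SE 0.46, edgeR adjusted p = 4.33e-06), the heavy chain Dync1h1 by 1.48 (SE 0.44, adjusted p = 0.0171), the intermediate chain Dync1i2 by 2.38 (SE 0.56, adjusted p = 7.72e-04), the light intermediate chain Dync1li2 by a fitted 4.62 (SE 1.45, adjusted p = 0.0236), with 0 reads in the P14 controls and a pooled level 2.71-fold lower, and the adaptor Hook3 by 2.24 (SE 0.69, adjusted p = 0.0333). None of the genes in these 3 lists was called between genotypes at P1, P7 or P14.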

How the data were processed

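Nuclear RNA of PCM1-sorted cardiomyocyte nuclei was sequenced from 3′ ends as single reads. Per the labels and the study's methods, the authors checked reads with FastQC 0.11.8, trimmed them with cutadapt 4.0, aligned them to GRCm39 with STAR 2.6.1e and counted reads over whole genes, introns included, with HTSeq 2.0.3. The deposited values are raw counts per gene and library. The strand setting of the counting is not given in the sources used here, 33 of the 42 members overlap another gene, and reads from overlapping genes on the other strand may not be told apart. Gene names came from a GENCODE annotation of GRCm39, which named 56236 of 56923 identifiers.

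Of 24 libraries, the 3 that the study left out were left out here too. Fitted were the 20368 genes that had 10 or more reads over all libraries and were read in 3 or more of them, with edgeR 4.0.16 (R 4.3.3), TMM factors, 6 group means, and a robust quasi-likelihood F-test with Benjamini-Hochberg adjustment over all genes. Calls needed an adjusted p under 0.05 together with a log2 fold change beyond 1 in either direction. Levels of single genes are TMM-scaled CPM, and sums over lists are CPM of the reads on genes unless TMM scaling is named. Counting intervals, Wilson intervals (95%) and the floor of 3 reads cover counting error only, since the reads were counted without molecular identifiers. One replicate is a pool of hearts, and p-values measure the spread between these pools.

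The members and the lists were chosen with earlier results of these data known. Values per library or full statistics are given for members called in any comparison or with an unadjusted p below 0.01, Kif18a, the 6 most-read mitotic and transport members, and Kif2a, Kif24 and Kif26b, and other members were named after their values were seen. Of partner genes, those called and the 3 most-read were named. Alternatives were other filters, tests (limma-voom with limma 3.58.1, DESeq2 1.42.0), scalings and sets of libraries, thinning to 891817 reads, a replicate block, and a term for the percentage of reads outside genes. The deposited files number the replicates as batches. Control and Casp2-depleted libraries that share a number had deviations correlated between -0.059 and 0.185 over 9 pairs, and blocked values stand beside the calls they change. A fit without the robust option was added after seeing the data.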

Additional observations from a re-analysis of the deposited data

Results flagged for a closer look

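In groups of 4 libraries, 63 sets of values were looked at for a library far from its group, and 4 stood out. The rule flags about 5% of groups by chance for normally distributed values, a rate that does not hold for counts with many zeros. A group read in a single library is always flagged, as were those of Kif18a and Kif1a below. Kif18a had 12.2 TMM-scaled CPM in P7 control replicate 2 and 0 in the other 3 libraries of the group. Kif23 had 90.5 in P1 Casp2-depleted replicate 2, with 17.6 the next highest. Kif1a had 34.0 in P1 Casp2-depleted replicate 4 and 0 in the others. The mitotic sum was 153 CPM in P7 control replicate 1, with 306 the next lowest.

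Of the libraries left out of the fit, P1 control replicate 1 had a transport sum of 2149 CPM, above the 1807 that was the highest among the P1 controls used. P14 Casp2-depleted replicate 1 had a transport sum of 1933 CPM, above the 1584 that was the highest among the P14 controls used but within the 1325 to 2131 of its own group, with reads on 13 kinesins and 4285 genes. P14 control replicate 3 had a transport sum of 197 CPM and a mitotic sum of 0, with reads on 3 kinesins and 2049 genes.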

How the results depend on the processing

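The count of members called was compared between alternatives for each of the 14 comparisons. Lower at P14 than at P7 averaged over genotypes, 5 were called, against 10 with limma-voom (3242 of all genes in place of 1817), 3 with the share on no gene as a term (225 of all genes) and 4 to 6 without single libraries. In controls alone 1 was called, against 0 with all 24 libraries, without TMM factors and with the share on no gene, 2 with only the groups compared, and 1 to 2 without single libraries. In Casp2-depleted samples alone 4 were called, against 1 with all 24 libraries.

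Between P14 and P1 averaged over genotypes 3 were called, against 5 with all 24 libraries, 1 each with limma-voom, only the groups compared, no TMM factors and the share on no gene, and 1 to 4 without single libraries. In Casp2-depleted samples 3 were called, against 0 with all 24 libraries, 1 each with those 4 alternatives, and 1 to 4 without single libraries. Between genotypes at P14 0 were called, against 1 with DESeq2, 1 without the robust option and 0 to 1 without single libraries. The interaction of P14 against P7 gave 1 with DESeq2, and P7 against P1 averaged over genotypes gave 1 with only the groups compared. The cause of these differences was not tested.

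The replicate number as a block left 1 member called between P14 and P1 averaged over genotypes in place of 3 and kept the count within 1.5 times in the other 13 comparisons. Same-numbered libraries correlated with a median of 0.007 over 46 pairs, but these pairs mix ages. Control and Casp2-depleted libraries of the same age and number correlated up to 0.185 (P7 replicate 1), with only P1 replicate 3 (-0.059) below 0. Whether libraries were paired by number could not be settled from these values. The deposited files number the replicates as batches. The block also ended the calls of Kif18a, of Kif1c in Casp2-depleted samples at P14 against P7 and of Kif3a at P14 against P1.

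The log2 fold change of Kif20b between genotypes at P14 ran from -8.70 to 0.00 without single libraries, and was 0.00, with 0 reads in both groups, without P14 control replicate 4. The sign turned for Kif3a in that comparison, to 0.86 with all 24 libraries, and for Kif13a and Kif1b between P14 and P7, to 0.033 and 0.43 with the share on no gene as a term. At P14 the floor of 3 reads was 2.35 to 3.36 CPM per library, so lower levels could not be told from 0.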
